A study of Mus musculus with 32 samples.

Results

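Fatty acid synthesis and desaturation were followed in the developing mouse brain through 10 genes, Acly, Acss2, Aacs, Acaca, Fasn, Elovl6, Scd1, Scd2, Fads1 and Fads2. They were taken by symbol from the 55291 gene symbols of the deposited count tables, and all 10 were present in each of the 4 tables. RNA came from whole brains of C57BL/6J mice that were either wild type (WT, Dhcr7+/+) or knockout (KO, Dhcr7-/-) for Dhcr7, which encodes the last enzyme of cholesterol synthesis by the Kandutsch-Russell route and is mutated in Smith-Lemli-Opitz syndrome. Each genotype was sampled on the day of birth (PND0) and on 3 embryonic days before it (E16.5, E14.5, E12.5), with 4 libraries in each of the 8 groups and 32 in all. The labels name no litter, sex or batch and do not say that each library is a separate animal, so p-values measure the spread between these libraries. The labels name no other allele, no tissue-specific driver and no treatment, and the controls carry no deletion.

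Much of the saturated and monounsaturated fatty acid of the developing brain is made in place. ACLY, ACSS2 and AACS supply acetyl-CoA or acetoacetyl-CoA in the cytosol from citrate, acetate and the ketone body acetoacetate. ACACA carboxylates acetyl-CoA to malonyl-CoA, and FASN builds palmitate from both. ELOVL6 extends palmitate to stearate, SCD1 and SCD2 introduce the first double bond to give palmitoleate and oleate, and FADS1 and FADS2 desaturate the essential precursors of arachidonic and docosahexaenoic acid. The transcription factors SREBP1 and SREBP2, encoded by Srebf1 and Srebf2, activate genes of both fatty acid and sterol synthesis, and the LXR receptors, which bind oxysterols, activate Srebf1, Scd1, Fasn, Abca1 and Abcg1.

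The promoters of 3 of the genes are shown: Aacs, which differed between the genotypes within stages and in the mean over them, and Acly and Fasn, whose mean difference passed the test in some fits only. They come from RefSeq on GRCm38.p6, run 5′ to 3′ on the gene's own strand and end before the annotated start of transcription. The motifs searched, on both strands of the 250 bases before the start, were 2 forms of the sterol response element (TCACNCCAC and TCACNCC, the second lying within the first), an E-box (CACGTG), the NF-Y box (CCAAT) and the GC box (GGGCGG). The Aacs stretch, at chr5:125475813-125475842 on the plus strand, holds the short sterol response element in reverse, in capitals; it is kept to 30 bases because GENCODE places 29 of them inside the first exon.
Aacs: cgaaggctgctgggGGTGTGAccaggccgg
The Acly stretch, at chr11:100528001-100528250 on the minus strand, has its 4 GC boxes in capitals.
Acly: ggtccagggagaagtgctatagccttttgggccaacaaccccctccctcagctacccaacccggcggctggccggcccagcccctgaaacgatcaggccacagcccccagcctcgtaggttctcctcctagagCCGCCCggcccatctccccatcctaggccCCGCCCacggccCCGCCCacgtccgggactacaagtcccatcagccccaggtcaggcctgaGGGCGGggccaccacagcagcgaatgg
The Fasn stretch, at chr11:120824548-120824797 on the minus strand, has its 3 NF-Y boxes in capitals, of which 2 overlap on opposite strands.
Fasn: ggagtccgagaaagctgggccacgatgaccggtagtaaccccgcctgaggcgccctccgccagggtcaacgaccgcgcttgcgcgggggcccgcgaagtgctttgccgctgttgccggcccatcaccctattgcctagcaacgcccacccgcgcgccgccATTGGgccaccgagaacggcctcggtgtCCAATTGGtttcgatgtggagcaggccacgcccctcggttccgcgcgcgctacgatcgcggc
Among 32851 mouse promoters of the same length, 13.4% held the short sterol response element, 1.05% the long one, 6.02% the E-box, 33.8% the NF-Y box and 32.7% the GC box. Among the 7 promoters of the 10 genes that the table holds, the same motifs were found in 1, 0, 0, 2 and 3. A match describes these letters only, and no factor's binding was measured. On mm10, GENCODE M21 places Aacs at chr5:125475814-125517410 on the plus strand. The delta-9 desaturases are neighbours on chromosome 19, Scd2 at chr19:44293674-44306864 on the plus strand and Scd1 at chr19:44394455-44407879 on the minus strand, as are Fads2 at chr19:10062765-10101746 on the minus strand and Fads1 at chr19:10182888-10196877 on the plus strand.

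Library totals ranged from 13868087 to 28318857 counts, so 3 counts correspond to 0.106 to 0.216 CPM, far below every level of the 10 genes. CPM are a gene's counts relative to the library's total, here on one scale for all 32 libraries, made with the trimmed mean of M-values (TMM). Dhcr7 itself lay between 58.8 and 104 CPM in the 16 WT libraries and between 11.8 and 26.6 CPM in the 16 KO libraries, lower in every KO library than in every WT library. KO replicate 1 of E12.5 stood apart: 5.64% of its counts fell on the ribosomal RNA gene CT010467.1, against 0.191% to 0.376% in the other E12.5 libraries, and its longer genes read low. WT replicate 1 of E16.5 had 3.75% on that gene, against 0.356% to 0.626% in the other E16.5 libraries, and KO replicates 3 and 4 of E14.5 had 2.68% and 2.55%, against 0.869% to 1.17% in the others of that stage. At PND0 the share on CT010467.1 was 1.80% to 2.79% in WT and 1.16% to 2.09% in KO. A covariate on that share therefore partly follows genotype at PND0. The PND0 genotypes also differed in the trend of level with gene length. The deviation of a gene's level from its mean over the 8 libraries was correlated with the length of its merged exons (15786 genes). Spearman's rho was 0.058 to 0.241 in the 4 WT libraries and -0.256 to -0.0675 in the 4 KO libraries. Also at PND0, the 6 red blood cell markers summed to 187 to 253 CPM in WT and 219 to 2171 CPM in KO, and the 5 choroid plexus markers to 306 to 593 CPM in WT and 574 to 945 CPM in KO, with all markers detected, and their part in the PND0 differences was not tested. The 8 neuronal markers were detected in all groups and summed to 2991 CPM or more in every library. Markers of other tissues were also present, and those of meninges, skin and skeletal muscle reached their highest sums at E12.5. The 5 markers of meninges and fibroblasts summed to 989 to 2232 CPM in E12.5 WT and 428 to 2058 CPM in E12.5 KO, against 376 to 444 CPM in E14.5 WT. The 5 skin and sebaceous markers summed to 15.9 to 126 CPM in E12.5 WT and 15.2 to 56.8 CPM in E12.5 KO, against 10.9 to 15.7 CPM in E14.5 WT, and the 5 skeletal muscle markers to 14.45 to 119, 5.05 to 20.1 and 2.90 to 4.07 CPM in the same groups. At E16.5, KO replicate 4 read 25.4 CPM of the liver marker Alb and 21.4 CPM of the skin marker Krt5. In E16.5 WT these read at most 8.39 and 0.773 CPM. The 6 adipose markers summed to as much as 9.53 CPM in E16.5 KO and 3.50 CPM in E16.5 WT. The part of such tissues in the differences that involve E12.5 or E16.5 was not tested.

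**Figure D1:**
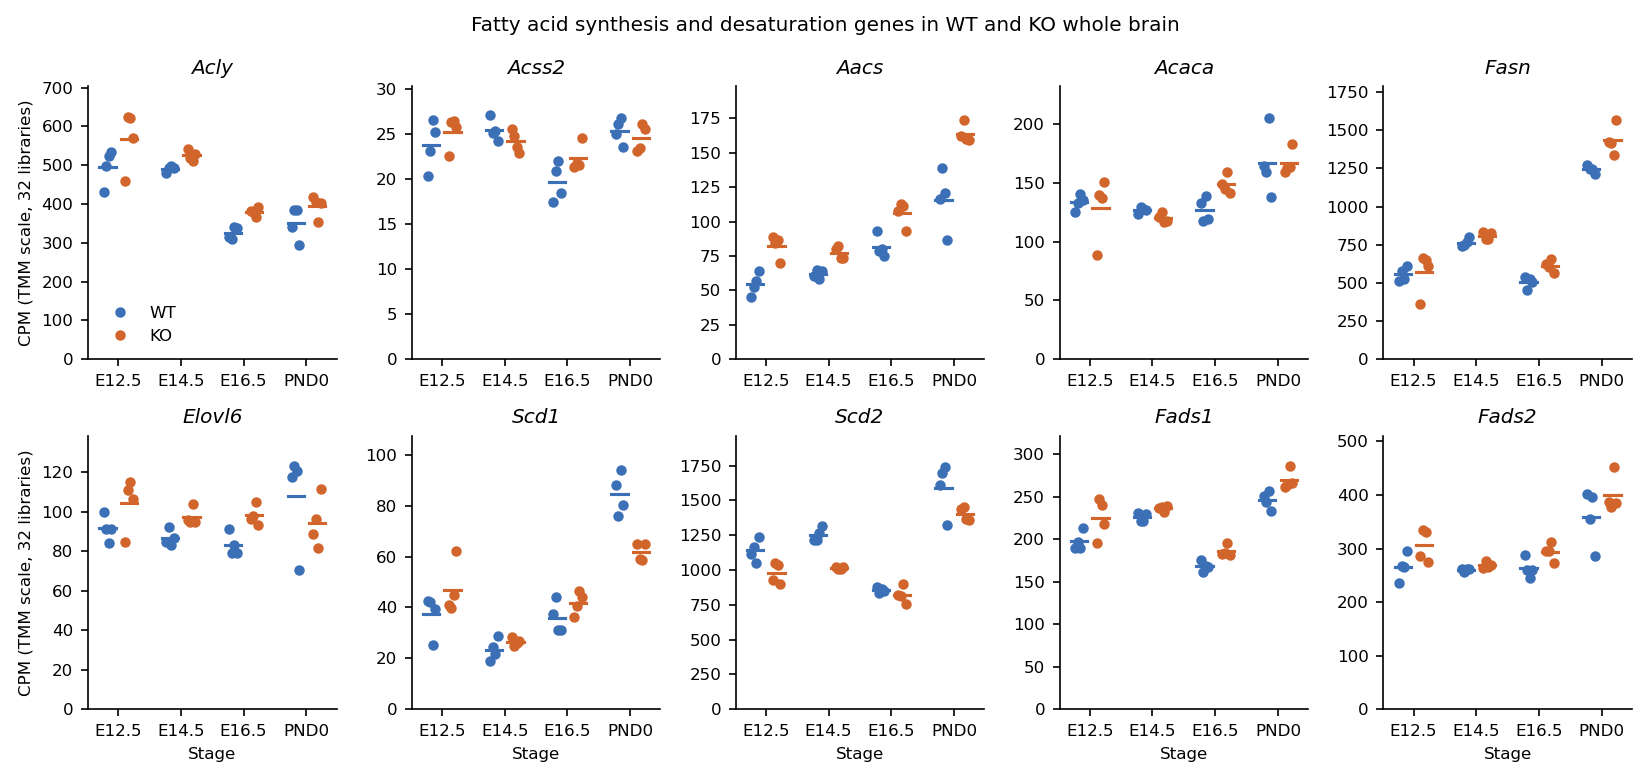
Each panel is 1 gene; points are single libraries in CPM on the common TMM scale, bars are means of 4 libraries, and WT and KO stand side by side at each stage. Aacs is higher in KO than in WT at all 4 stages, Scd2 is lower at E14.5, and Scd1 separates downward only at PND0.

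Per kilobase of merged exons, Scd2 was the most abundant of the 10 transcripts in WT brain at every stage and Acss2 the least. At E12.5 the mean levels per kilobase ran from Scd2 (209) through Acly (94.0), Fads2 (80.7), Fasn (50.8), Fads1 (41.0), Elovl6 (14.2), Aacs (14.2), Acaca (7.82) and Scd1 (7.62) to Acss2 (2.35). Neighbouring genes whose WT libraries overlapped at E12.5 were Acly and Fads2, Elovl6 and Aacs, and Acaca and Scd1. By PND0 the order was Scd2 (291), Fasn (114), Fads2 (109), Acly (66.5), Fads1 (51.2), Aacs (30.0), Scd1 (17.3), Elovl6 (16.8), Acaca (9.75) and Acss2 (2.50), with overlap between Fasn and Fads2, Scd1 and Elovl6, and Elovl6 and Acaca. Fasn thus moved from the fourth place to the second, though its PND0 libraries overlapped those of Fads2, and Acly from the second to the fourth. On the longest transcript Fasn (55.3 per kilobase) lay below Fads1 (57.0) at E12.5. The places of Acaca and Acss2 depend most on the length used: their merged exons (17074 and 10163 nt) are far longer than their longest transcripts (9513 and 3609 nt). On that measure Acss2 reached 7.06 per kilobase at E14.5, above Scd1 at 4.83, and Acaca reached 17.5 at PND0, equal to Scd1 at 17.5. Acss2 also shares 9.12% of its exon bases with genes on the opposite strand (Ggt7, Acss2os and Gss), and the strand setting of the counting is not given in the sources used here. Scd1 and Scd2 share 1.66% and 1.47% of their windows of 75 nt with each other, and Scd1 shares 2.33% of its windows with Scd3. These windows are shorter than the 150 bp reads. How the counting treated reads from such windows is not given in the sources used here. Scd2 is far more abundant (1253 against 23.4 CPM in E14.5 WT). Even a small share of its reads, if counted to Scd1, would be large beside the Scd1 level. How far the Scd1 levels are affected was not tested.

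**Figure D2:**
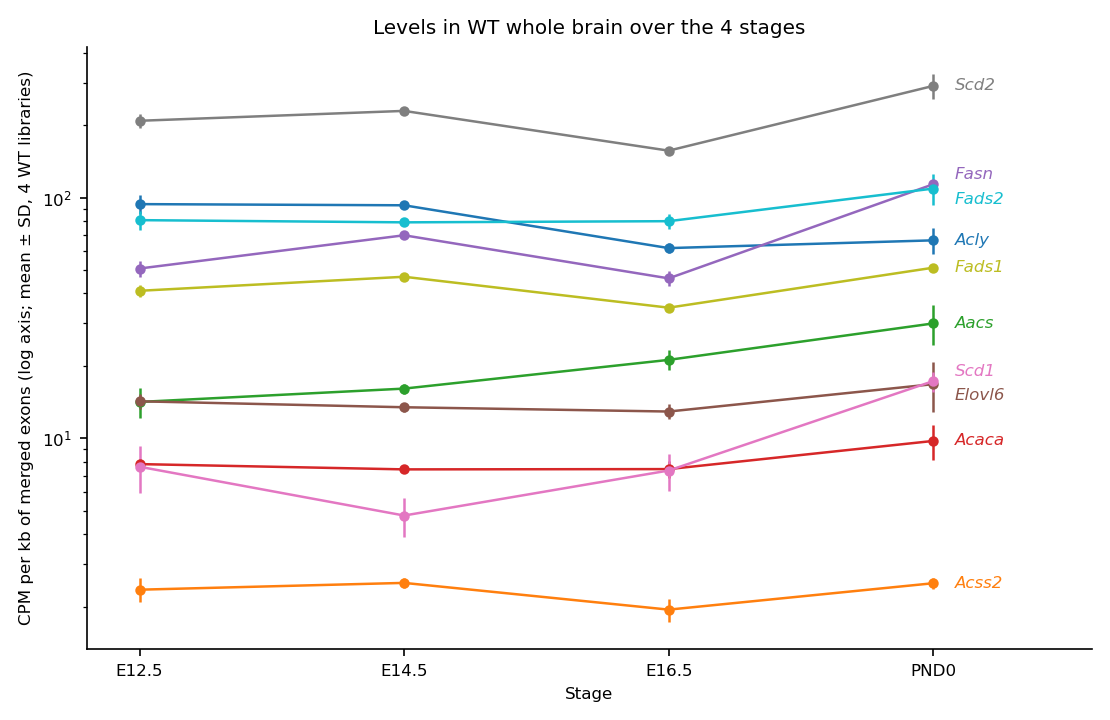
Mean level of each gene in the 4 WT libraries of each stage, in CPM per kilobase of merged exons on a log axis; bars are SDs. Scd2 is highest throughout, and Fasn and Scd1 climb most steeply between E16.5 and PND0.

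In WT brain the genes did not follow one course. From E12.5 to E14.5, 3 of the 10 changed, Fasn and Fads1 rising and Scd1 falling, where 57.8% of all genes tested changed, 27.3% upward and 30.5% downward (edgeR's quasi-likelihood test, Benjamini-Hochberg adjusted p under 0.05, as throughout). From E14.5 to E16.5, 2 rose and 5 fell, against 29.3% and 28.2% of all genes and 57.5% in either direction. From E16.5 to PND0, 8 changed, all upward, against 53.2% of all genes, 26% upward and 27.2% downward. Over the whole span 7 rose and 1 fell, against 34.5% and 36.4% of all genes and 70.9% in either direction. Since each stage was deposited as its own table, stage and table cannot be told apart, and in bulk tissue a change in cell makeup and a change of RNA per cell cannot be told apart either. Sex was not balanced between E12.5 and E14.5. In E12.5 WT only replicate 1 read the Y-linked gene Ddx3y, at 1089 counts, and in E14.5 WT only replicate 2 read none. No sex covariate was used in the WT steps, so the part of sex in them was not tested.

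Fasn, the multi-enzyme synthase, rose, fell and rose again. Its E12.5 WT libraries read 512, 577, 527 and 608 CPM, those of E14.5 741, 746, 765 and 803 CPM, those of E16.5 537, 455, 523 and 508 CPM and those of PND0 1272, 1244, 1249 and 1214 CPM. No library of one stage overlapped the next. The log2 changes were 0.44 (SE 0.062, adjusted p = 2.02e-04), -0.59 (SE 0.057, adjusted p = 2.87e-07) and 1.24 (SE 0.071, adjusted p = 2.80e-08). Scd2, the desaturase isoform that predominates in brain, shared the later 2 of these steps. It averaged 1140 ± 78.9, 1253 ± 47.2, 857 ± 17.9 and 1592 ± 186 CPM (SD, n = 4) over the 4 stages. It fell by 0.54 into E16.5 (SE 0.048, adjusted p = 1.08e-07) and rose by 0.84 into PND0 (SE 0.084, adjusted p = 1.98e-06), on the log2 scale. Fads1 passed all 3 steps, each smaller than that of Fasn: its means were 197 ± 11.2, 226 ± 5.38, 168 ± 5.87 and 246 ± 10.03 CPM (SD, n = 4), with log2 changes of 0.18, -0.42 and 0.49 that all passed the test (adjusted p = 0.0106, 1.17e-06 and 1.36e-05). The first of these was lost with transcript length offsets, which use the length of merged exons (log2 0.12, adjusted p = 0.0672).

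Scd1 fell where Fasn first rose and rose where Fasn fell. Its E12.5 WT libraries read 42.5, 42.0, 25.2 and 39.4 CPM, those of E14.5 18.8, 24.3, 21.6 and 28.8 CPM, those of E16.5 37.6, 44.2, 31.0 and 31.0 CPM and those of PND0 88.0, 75.9, 94.0 and 80.4 CPM. E12.5 replicate 3 fell within the E14.5 range, so those stages overlapped, while all later steps separated. The log2 changes were -0.69 (SE 0.19, adjusted p = 0.0126), 0.63 (SE 0.15, adjusted p = 0.00480) and 1.18 (SE 0.12, adjusted p = 2.05e-06). The first step was lost with no filter on low counts (adjusted p = 0.0516). Scd1 is also a gene of sebaceous glands and adipocytes. Krt5, a keratin of skin, read 69.2, 35.2, 0.823 and 30.3 CPM in the E12.5 WT libraries, lowest in the one with the least Scd1, and 0.169 CPM or less in E14.5 WT. The WT library with its highest E16.5 level, replicate 2, had the highest sum of 6 adipose markers in that group, 3.50 CPM against a group median of 0.726. The part of skin or adipose cells in the Scd1 levels was not tested. As a share of Scd1 plus Scd2 per kilobase, Scd1 made up 3.50% ± 0.652, 2.03% ± 0.307, 4.48% ± 0.810 and 5.64% ± 0.654 (SD, n = 4) at the 4 stages.

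Aacs, which activates acetoacetate from ketone bodies for lipid synthesis, rose late. Its WT means were 54.6 ± 7.91, 62.0 ± 2.94, 81.6 ± 7.83 and 116 ± 21.8 CPM (SD, n = 4). The first step did not pass the test (log2 0.17, SE 0.091, adjusted p = 0.140), and the next 2 did (0.40 and 0.44, adjusted p = 7.41e-05 and 0.00691). Acly, the citrate lyase that gives most cytosolic acetyl-CoA, was the 1 gene that ended lower than it began. Its E12.5 WT libraries read 430, 498, 524 and 533 CPM, those of E14.5 480, 492, 498 and 493 CPM, those of E16.5 315, 310, 340 and 338 CPM and those of PND0 340, 385, 385 and 294 CPM. The fall lay between E14.5 and E16.5 (log2 -0.58, SE 0.050, adjusted p = 7.62e-08), with no overlap, and the level at PND0 stood 0.50 below that at E12.5 on the log2 scale (log2 -0.50, SE 0.10, adjusted p = 0.00104).

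Fads2, the delta-6 desaturase, averaged 266, 260 and 263 CPM at the 3 embryonic stages and 360 CPM at PND0 (log2 0.39, SE 0.098, adjusted p = 0.00367). Acaca, the acetyl-CoA carboxylase, averaged 133, 127, 127 and 167 CPM and rose only into PND0 (log2 0.33, SE 0.10, adjusted p = 0.0157), a call that 1 of the 8 leave-one-out fits lost, the one without E16.5 WT replicate 4. With transcript length offsets, here on its merged exons of 17074 nt, its E16.5 level was lower than at E14.5 (log2 -0.15, adjusted p = 0.0213). Without them the change was 0.01. Acss2 averaged 23.9, 25.5, 19.7 and 25.4 CPM, falling into E16.5 (log2 -0.36, adjusted p = 0.00214) and rising again into PND0 (log2 0.31, adjusted p = 0.0257). That rise was lost in 6 of 14 alternatives: with no filter (0.0704), with length offsets (0.0738) and without E16.5 WT replicate 1 or 4 or PND0 WT replicate 2 or 3 (0.0550 to 0.0815). Elovl6 averaged 91.6, 86.6, 83.1 and 108 CPM and passed no step. At PND0 1 library was low: WT replicate 4 read 70.7 CPM and the others 118, 123 and 121. The same library was also the lowest of PND0 WT for Acly, Aacs, Fasn, Scd2 and Fads1, though not for Scd1. Without that library the step from E16.5 to PND0 was 0.48 (adjusted p = 9.74e-05), against 0.32 (SE 0.15, adjusted p = 0.0922) with it. With all libraries kept, the step also passed with no filter (0.00225), with the replicate block (0.0457) and in the fit of 32 libraries (0.00692).

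In the KO against WT comparisons, the supply enzyme Aacs lay higher in every KO library than in every WT library of its stage and passed the test at E14.5 and PND0. Scd2 was lower in KO at E14.5 and Scd1 at PND0, and no other gene of the 10 passed within a stage. None of the 10 passed at E12.5 with edgeR, where 0.0177% of 16948 genes did. There 2 of 10 had an unadjusted p under 0.05, against 4.7% of all genes. DESeq2 called 1, Aacs (30 of 22998 genes in all), and the edgeR fit of all 32 libraries also called Aacs at E12.5 (log2 0.59, adjusted p = 0.00518). Both E14.5 calls, of Aacs and Scd2, stand against 0.527% of 17837 genes, and 7 of 10 had an unadjusted p under 0.05 against 8.73% of all genes. None passed at E16.5 with edgeR, against 0.0462% of 17328 genes. There 7 of 10 had an unadjusted p under 0.05 against 11.5% of all genes, and DESeq2 called 5 of the 8 to which it gave an adjusted p, all higher in KO, where it called 168 of 3407 genes in all. With no filter on low counts edgeR called Aacs, Acaca, Fasn and Elovl6 at E16.5, where it called 233 genes in all, and Aacs also passed with the ribosomal RNA covariate (adjusted p = 0.0358) and without WT replicate 1 (log2 0.44, adjusted p = 0.0266). Both PND0 calls, of Aacs and Scd1, stand against 1.44% of 17420 genes, and 4 of 10 had an unadjusted p under 0.05 against 18% of all genes. The difference was above 0 for 8, 7, 9 and 6 of the 10 genes, in stage order, where it was above 0 for 50.7%, 50.6%, 50% and 49.9% of all genes. The 10 genes were chosen with earlier results of these data known. Such shares, here and in the mean over stages, are therefore no independent evidence of direction.

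**Figure D3:**
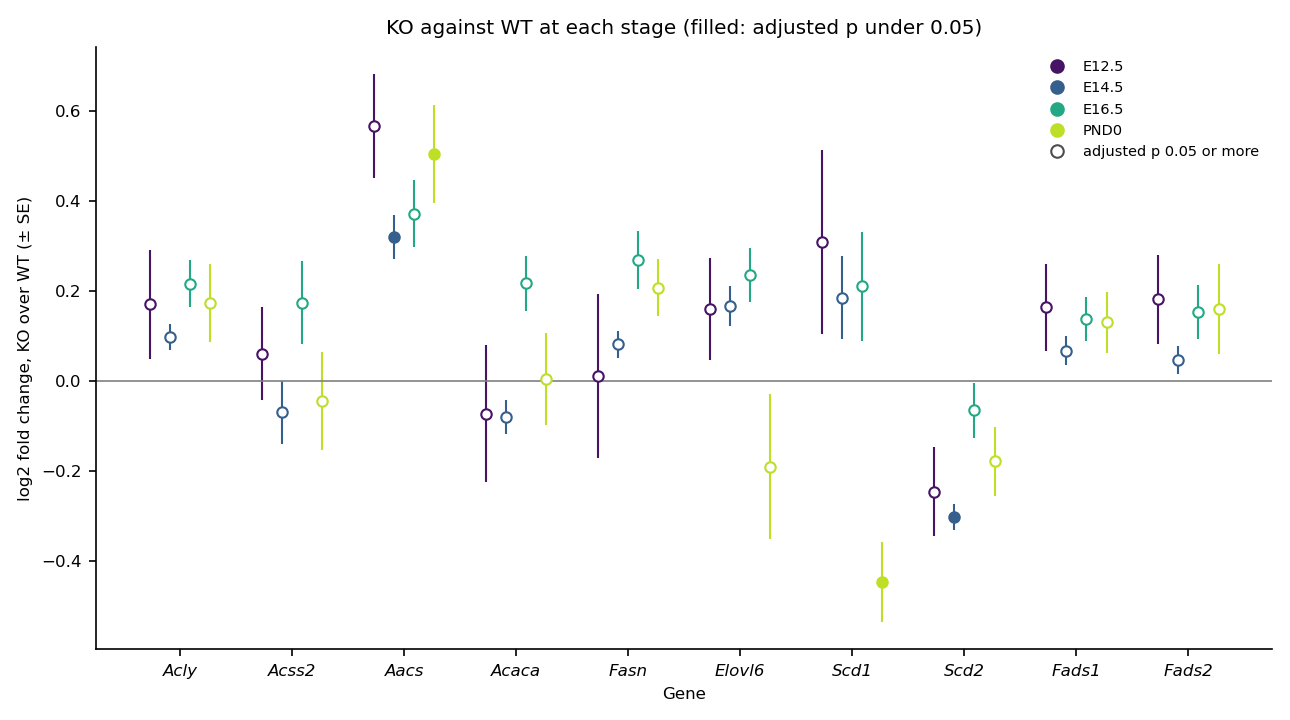
The log2 fold change of KO over WT with its SE for each of the 10 genes at each stage, from a fit on the 8 libraries of that stage; filled points have an adjusted p under 0.05. Aacs lies between 0.32 and 0.57 at all 4 stages, Scd2 lies below 0 at all 4, and Scd1 lies above 0 at the embryonic stages and at -0.45 at PND0.

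Aacs separated the genotypes in each of the 4 stages. Its E12.5 libraries read 44.9, 52.7, 56.8 and 63.9 CPM in WT and 88.4, 84.4, 86.6 and 70.1 CPM in KO. Those of E14.5 read 60.8, 64.8, 58.5 and 64.0 CPM in WT and 79.8, 82.6, 73.4 and 73.6 CPM in KO. The lowest KO library lay above the highest WT library on both days. KO exceeded WT by 0.57 on the log2 scale at E12.5 (SE 0.11, adjusted p = 0.717) and by 0.32 at E14.5 (SE 0.049, adjusted p = 5.66e-05). The E16.5 libraries read 93.0, 78.3, 80.0 and 75.2 CPM in WT and 108, 113, 111 and 93.1 CPM in KO, and those of PND0 117, 139, 121 and 86.4 CPM in WT and 162, 174, 160 and 159 CPM in KO. The groups again did not overlap, though the lowest KO library of E16.5 exceeded the highest WT library by very little. KO exceeded WT by 0.37 at E16.5 (SE 0.075, adjusted p = 0.164) and by 0.50 at PND0 (SE 0.11, adjusted p = 0.0370). The E14.5 call was lost only in the fit over all 32 libraries (adjusted p = 1, range over the 17 alternatives 6.21e-08 to 1). The PND0 call was lost in 7 of 17 alternatives: with transcript length offsets (0.0756), with the ribosomal RNA share as a covariate (0.694) and without any 1 of WT replicates 1 and 3 or KO replicates 1, 2 and 3 (0.0561 to 0.107).

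The other supply enzymes did not pass at any stage with edgeR; DESeq2 called Acly at E14.5 and E16.5. Acly was higher in every KO library than in every WT library at E14.5 (WT 480, 492, 498 and 493 CPM; KO 542, 517, 511 and 529 CPM) and at E16.5 (WT 315, 310, 340 and 338 CPM; KO 382, 380, 367 and 391 CPM). In stage order its log2 differences were 0.17, 0.10, 0.22 and 0.17 (adjusted p = 0.875, 0.155, 0.240 and 0.315), so none passed. Those of Acss2, the acetate-activating enzyme, were 0.06, -0.07, 0.17 and -0.04, all with overlapping groups.

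Of the synthesis enzymes, Fasn read 537, 455, 523 and 508 CPM in WT and 621, 606, 655 and 567 CPM in KO at E16.5, and 1272, 1244, 1249 and 1214 CPM in WT and 1424, 1416, 1338 and 1567 CPM in KO at PND0. All KO libraries lay above all WT libraries at both stages. The log2 fold changes were 0.27 (SE 0.064, adjusted p = 0.240) and 0.21 (SE 0.063, adjusted p = 0.0994), and those at E12.5 and E14.5 were 0.01 (SE 0.18) and 0.08 (SE 0.030). At PND0 the Fasn difference passed with DESeq2 (adjusted p = 0.0457) and with transcript length offsets (log2 0.34, adjusted p = 0.0289), over a range of 0.0289 to 0.724 for its 17 alternatives. The near-zero value at E12.5 rested on KO replicate 1, which read 362 CPM where the other KO libraries read 660, 649 and 608 CPM. Without it the Fasn difference was 0.17 (SE 0.073, adjusted p = 0.561). Acaca showed the same library low, at 88.8 CPM against 139, 137 and 151 CPM in the other KO libraries, and its E12.5 difference turned from -0.07 to 0.06 without it. At E16.5 Acaca read 133, 117, 139 and 120 CPM in WT and 149, 144.9, 159 and 141 CPM in KO, with no overlap (log2 0.22, SE 0.062, adjusted p = 0.282). Its differences at E14.5 and PND0 were -0.08 and 0.01.

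Among the elongation and delta-9 desaturation genes, the clearest difference was in Scd2 at E14.5. The WT libraries read 1214, 1219, 1264 and 1316 CPM and the KO libraries 1020, 1010, 1009 and 1023 CPM. The KO group lay wholly below WT and within a narrow range. The log2 difference of -0.30 (SE 0.028, adjusted p = 5.45e-10) stayed past the threshold in 16 of 17 alternatives; the fit over all 32 libraries did not (adjusted p = 0.708, range 3.06e-27 to 0.708). The 8 oligodendrocyte lineage markers, all with counts, summed to 132 to 139 CPM in WT and 120 to 129 CPM in KO at E14.5. These sums, made without TMM, did not overlap, by a narrow gap. The part of these markers' cells in the Scd2 difference was not tested. At the other stages the log2 difference of Scd2 was -0.25 at E12.5 (SE 0.098, adjusted p = 0.875), -0.06 at E16.5 (SE 0.061, adjusted p = 0.715) and -0.18 at PND0 (SE 0.077, adjusted p = 0.234). At PND0 WT replicate 4 read 1325 CPM, below all 4 KO libraries, and the other WT libraries read 1612, 1695 and 1737 CPM, above them all (KO 1437, 1452, 1370 and 1359 CPM). Without that WT library the PND0 difference was -0.25 (SE 0.060, adjusted p = 0.0555).

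Scd1 differed at birth. At PND0 the WT libraries read 88.0, 75.9, 94.0 and 80.4 CPM and the KO libraries 65.1, 59.1, 58.8 and 65.1 CPM. The groups did not overlap, and KO differed from WT by -0.45 on the log2 scale (SE 0.088, adjusted p = 0.0249). The call was lost in 6 of 17 alternatives: in the fit over all 32 libraries (0.0566), with the ribosomal RNA share as a covariate (0.628) and without any 1 of WT replicates 1 and 3 or KO replicates 1 and 2 (0.0680 to 0.0916), over a range of 8.17e-04 to 0.628. The 8 oligodendrocyte lineage markers, all with counts, summed to 320 to 349 CPM in WT and 278 to 316 CPM in KO at PND0. These sums, made without TMM, did not overlap, by a narrow gap. The part of these markers' cells in the Scd1 difference was not tested. The embryonic differences had the opposite sign, 0.31 (SE 0.20), 0.19 (SE 0.092) and 0.21 (SE 0.12) in stage order, none past the test. The E12.5 library with the highest Scd1, KO replicate 4 at 62.4 CPM, also had the highest sum of adipose markers, 8.91 CPM against a group median of 0.827, and the highest Krt5 and Krt14 of its group, 28.9 and 14.3 CPM against 0.661 to 24.7 and 0 to 9.09 CPM in the other KO libraries. KO replicates 2 and 3 read 1.52 and 0.661 CPM of Krt5, and KO replicate 1 read 24.7 CPM. As a share of Scd1 plus Scd2 per kilobase, Scd1 made up 4.05%, 4.60% and 4.72% in KO replicates 2, 3 and 1. In KO replicate 4 it made up 7.17%. The part of skin or adipose cells in the E12.5 Scd1 levels was not tested. The E16.5 sums were 1.43 to 9.53 CPM in KO and 0.376 to 3.50 CPM in WT. The highest, 9.53 CPM, was in KO replicate 2, where Scd1 made up 5.29% of Scd1 plus Scd2 per kilobase. In the other KO libraries of E16.5 that share was 4.69% to 6.08%. It was highest in KO replicate 4, which read 21.4 CPM of Krt5, against 1.17 CPM or less in the other KO libraries. The part of skin or adipose cells in these shares was not tested. At PND0 the adipose markers summed to 0.483 to 1.12 CPM in WT and 0.326 to 0.579 CPM in KO, and Cidec was at 0 in both groups. Whether the KO effect on Scd1 differs between stages was tested directly, and the adjusted p over 19541 genes was 0.174 (edgeR, F = 5.99; 0.0519 to 0.600 over the alternatives), so a difference between stages was not established. Scd1 as a share of Scd1 plus Scd2 per kilobase was 2.69% to 3.02% in KO against 1.70% to 2.38% in WT at E14.5, without overlap and without a test, and 4.35% to 5.08% in KO against 4.76% to 6.35% in WT at PND0, with overlap.

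Elovl6 was higher in every KO library than in every WT library at E14.5 (WT 84.4, 92.0, 83.0 and 86.8 CPM; KO 95.7, 94.6, 104 and 94.7 CPM) and at E16.5 (WT 91.3, 79.0, 83.0 and 79.0 CPM; KO 96.4, 98.0, 105 and 93.4 CPM). The log2 fold changes were 0.17 (SE 0.045, adjusted p = 0.0795) and 0.24 (SE 0.060, adjusted p = 0.240), both past the threshold with DESeq2. At E12.5 the difference was 0.16 (SE 0.11), with overlap. At PND0 the value was -0.19 (SE 0.16), with the low WT replicate 4 inside the group, and -0.34 without it, where its adjusted p was 0.0903.

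The desaturases of polyunsaturated fatty acids did not pass within any stage. Fads1, the delta-5 desaturase, read 231, 221, 221 and 230 CPM in WT and 236, 238, 232 and 238 CPM in KO at E14.5, and 176, 161, 168 and 167 CPM in WT and 182, 184, 195 and 182 CPM in KO at E16.5. At PND0 it read 251, 243, 257 and 234 CPM in WT and 262, 263, 286 and 266 CPM in KO. In these 3 stages all KO libraries lay above all WT libraries, by small margins. In stage order its log2 differences were 0.16, 0.07, 0.14 and 0.13, the lowest adjusted p being 0.329. Those of Fads2 were 0.18, 0.05, 0.15 and 0.16, the lowest adjusted p being 0.374, and of the 4 stages only E14.5 had separate groups. Counted over the 10 genes in stage order, 1, 5, 6 and 3 had all KO libraries above all WT libraries, where 1.71%, 2.18%, 2.87% and 5.44% of all genes did so, and 0, 1, 0 and 1 had them all below, where 1.03%, 2.61%, 3.58% and 6.26% did.

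Averaged over the 4 stages in 1 fit of 32 libraries, Aacs and Fads1 were higher and Scd2 lower in KO, where 0.558% of 19541 genes passed, 0.399% higher and 0.159% lower. The mean log2 effect was 0.45 for Aacs (SE 0.052, adjusted p = 1.60e-06), -0.19 for Scd2 (SE 0.038, adjusted p = 0.00742) and 0.13 for Fads1 (SE 0.031, adjusted p = 0.0403). Aacs passed in all 11 alternatives run, Scd2 in 8 and Fads1 in 6; both Scd2 and Fads1 were lost without replicate 2, 3 or 4 of all groups (adjusted p up to 0.200 and 0.533), and Fads1 also with no filter on low counts (0.145) and with the replicate block. Acly (0.17, SE 0.043, adjusted p = 0.0658), Fads2 (0.14, SE 0.044, adjusted p = 0.138) and Fasn (0.15, SE 0.054, adjusted p = 0.235) fell short. Without KO replicate 1 of E12.5, a fit added after the data were seen, Acly (0.19, adjusted p = 0.00277) and Fasn (0.19, adjusted p = 5.41e-04) passed as well, giving 4 genes higher and 1 lower among the 10. Transcript length offsets, added in the same way, gave the same 5 genes. The mean effects of Elovl6, Scd1, Acss2 and Acaca were 0.10, 0.07, 0.04 and 0.02. Of the 10, 6 had an unadjusted p under 0.05, against 12.4% of all genes, and 9 lay above 0, against 50.6%; their median was 0.12, and that of all genes tested 0.0014. None of the 10 showed a KO effect that differed between stages at an adjusted p under 0.05 with edgeR, where 0.0256% of all genes did; Scd1 and Elovl6 had an unadjusted p under 0.05 (0.00243 and 0.0473), as did 2635 of all 19541 genes.

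Few other genes of the pathway passed. Of 28 further enzymes of fatty acid synthesis, elongation, desaturation and activation that were tested, none passed with edgeR at E12.5, E16.5 or PND0, nor did any of 29 at E14.5; 3, 6, 4 and 6 had an unadjusted p under 0.05 in stage order, where 4.7%, 8.73%, 11.5% and 18% of all genes did. DESeq2 called Tecr, the enoyl-CoA reductase of the elongation cycle, at E14.5 and PND0 and no other. In the mean over stages Tecr alone passed (log2 0.15, SE 0.035, adjusted p = 0.0350), and the median of the list was 0.01. Of 21 genes of fatty acid oxidation none passed at any stage with edgeR, 0, 1, 2 and 3 having an unadjusted p under 0.05, below those shares, or with DESeq2, which gave an adjusted p to 21, 17, 2 and 18 of them, and their median over stages was -0.03. Among 7 suppliers of NADPH, the reductant of fatty acid synthesis, Idh1 (0.22, adjusted p = 0.00462) and Tkt (0.14, adjusted p = 0.0433) were higher in the mean over stages. In that mean 0.558% of all genes passed. Of 7 genes listed under ketone body use, only Acat2, the cytosolic acetoacetyl-CoA thiolase, passed in that mean (0.37, SE 0.046, adjusted p = 7.17e-06). That enzyme is not specific to ketone body use, and Bdh1, Oxct1 and Acat1 of the same list did not pass. Of 27 genes of glycerolipid and phospholipid synthesis, 2 passed in that mean. Pcyt2, of phosphatidylethanolamine synthesis, was higher (0.30, adjusted p = 1.88e-05) and Gpam, of glycerol-3-phosphate acylation, lower (-0.19, adjusted p = 0.0387). Within stages, Pcyt2 and Gpam passed at E14.5, and Pcyt2 and Cds2 at PND0. Cds2 was lower in KO there, with a mean of 351 CPM in WT and 244 CPM in KO.

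**Figure D4:**
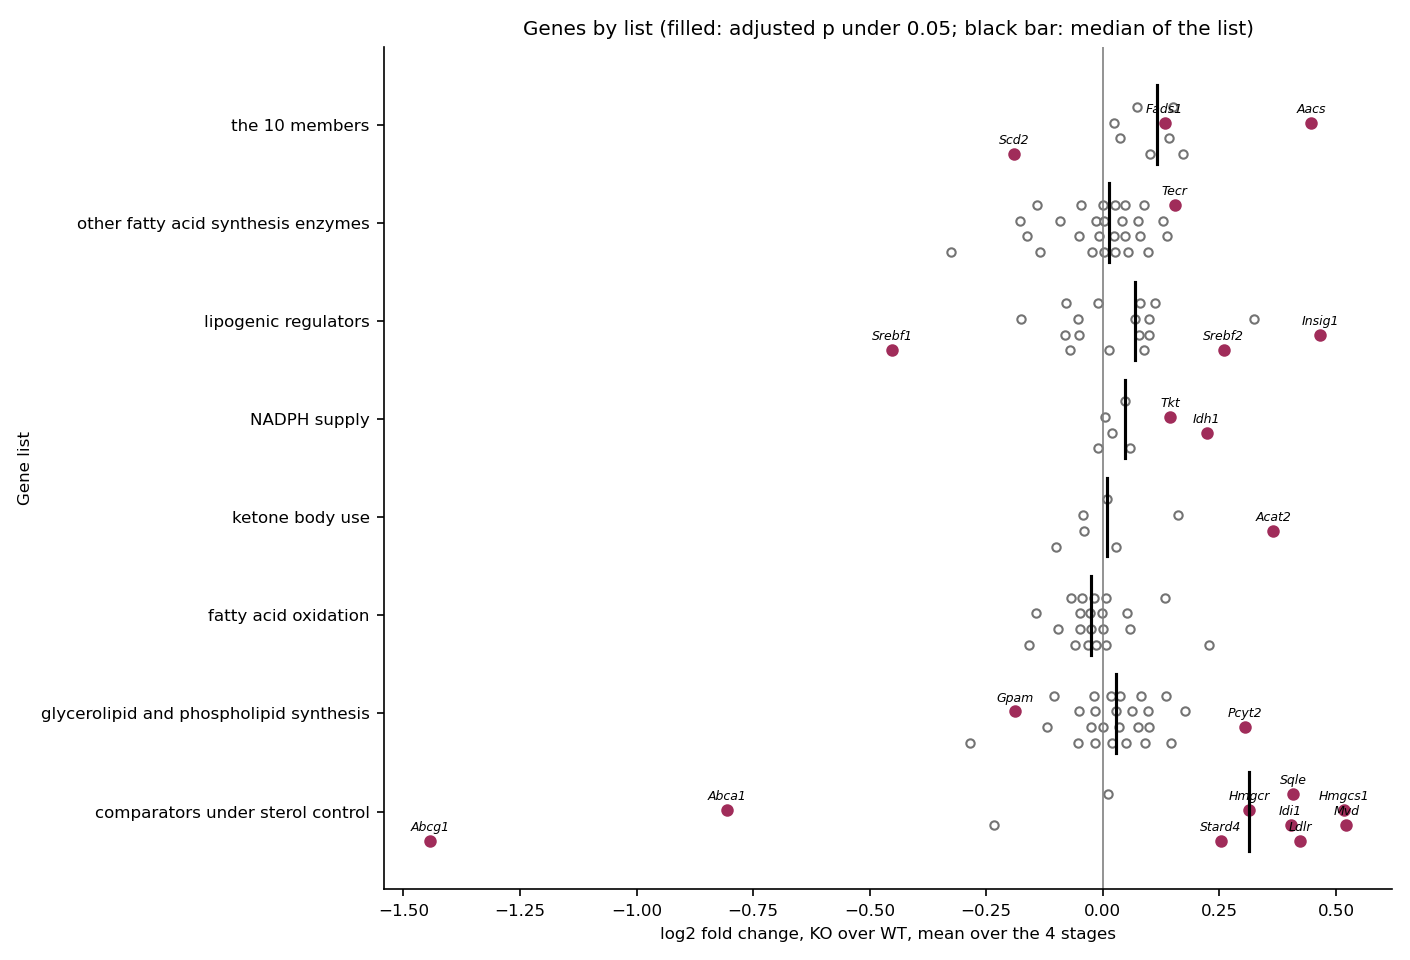
The log2 fold change of KO over WT, averaged over the 4 stages, for the genes of each list; filled and named points have an adjusted p under 0.05, and black bars mark each list's median. The median of the 10 genes is 0.12 and that of the sterol-controlled comparators 0.31, while that of the oxidation genes is -0.03.

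Of 19 lipogenic regulators, 3 passed in the mean over stages, Srebf2 and Insig1 higher and Srebf1 lower, where 0.558% of all genes passed. Of the 19, 5 had an unadjusted p under 0.05, against 12.4% of all genes. Srebf1 was lower in every KO library than in every WT library at all 4 stages. In stage order its WT libraries ranged from 76.6 to 87.7, 86.3 to 97.4, 52.0 to 59.6 and 69.9 to 84.0 CPM, and its KO libraries from 54.9 to 68.0, 59.8 to 67.1, 43.2 to 46.4 and 51.1 to 60.4 CPM. The log2 differences were -0.49 (adjusted p = 0.589), -0.56 (adjusted p = 5.94e-11), -0.35 (adjusted p = 0.0599) and -0.43 (adjusted p = 0.0293), and -0.45 in the mean over stages (SE 0.037, adjusted p = 5.08e-10). Srebf2 was higher in that mean (0.26, SE 0.049, adjusted p = 0.00462), as was Insig1, which holds SREBP precursors in the endoplasmic reticulum (0.47, SE 0.045, adjusted p = 2.74e-08). For comparison, the mean effect was 0.52 for Hmgcs1, of sterol synthesis (SE 0.055), and -0.81 and -1.44 for the sterol exporters Abca1 and Abcg1 (SE 0.070 and 0.054). The list of 11 comparators and the list of regulators were chosen with results of these data known and are no independent evidence of direction.

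The genes most like each of the 10 were found by Pearson's correlation of log2 CPM over the 32 libraries among the 10951 other genes that average 10 CPM or more; libraries of a stage share their table, so these values are descriptions. Over the stages Fasn was most like Dctn1 (r = 0.954), Acly like Amotl2 (0.930), Fads1 like Got2 (0.925), Aacs like Atg16l2 (0.917) and Scd2 like Copg1 (0.908). After each stage's mean was subtracted, which leaves the genotype and the spread between libraries, the nearest genes were Sqle for Aacs (0.945), Smarca4 for Fasn (0.913), Srebf2 for both Acly (0.872) and Fads1 (0.849), Macf1 for Acaca (0.860), Tm7sf2 for Fads2 (0.798) and Dhcr7 for Scd2 (0.768). Among the 10 themselves, on that second scale, Fads1 and Fads2 were the closest pair (0.836), and Aacs and Scd2 the least alike (-0.382).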

How the data were processed

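Whole-brain RNA was extracted with a Qiagen lipid kit, enriched for polyA and sequenced as 150 bp paired ends on an Illumina NovaSeq, per the labels' protocols. The submitters' processing notes name HISAT2, SAMtools, featureCounts, DESeq2 and the mm10 build, without roles; versions, annotation and strand setting are not given in the sources used here. The authors deposited raw counts per gene symbol, 1 table for each stage, which were joined by symbol. No deposited value was changed, and no sample was left out of the main fits.

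Genotypes were compared within each stage (4 against 4 libraries), WT stages with each other, and the KO effect's mean and stage dependence over 32 libraries, with edgeR 4.0.16 in R 4.3.3: TMM, filterByExpr (minimum count 10, minimum total 15), robust quasi-likelihood fits and Benjamini-Hochberg adjustment over all genes tested, with a threshold of 0.05. Each SE was taken as the log2 difference divided by the root of its F statistic, without sign. Lengths came from GENCODE M21. The length trend and the transcript length offsets used each gene's merged exons, not its longest transcript. Alternatives were RLE size factors, no filter, DESeq2 1.42.0, a replicate block, transcript length offsets (lowess span 0.3), 1 fit of 32 libraries, sex-gene and ribosomal RNA covariates, and leaving out each library; DESeq2's missing adjusted p stayed missing. The scripts were tested on simulated data. Of 50 genes changed 1.25-fold at each stage, 8%, 88%, 40% and 14% were called in stage order. Of 50 changed 2-fold, 94% or more were called at each stage. A missing call at E12.5, E16.5 or PND0 therefore need not mean that a difference of the smaller size is absent. Within groups, all 48 pairs of libraries differed by more than counting noise (chi-square per degree of freedom of 2.90 or more). Intervals of counting error are not given, since the spread between libraries exceeds them.

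The 10 genes and all lists were chosen with earlier results of these data known. Named genes are all 10; Dhcr7; Srebf1; 4 comparators (Hmgcs1, Insig1, Abca1 and Abcg1); up to 3 genes per list past the threshold in a genotype comparison; and the most alike genes.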

Additional observations from a re-analysis of the deposited data

Results flagged for a closer look

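In each group of 4 libraries, the highest or lowest value was set against the rest by Dixon's test at the 95% level. Among the 80 groups of the 10 genes, 6 held a value that stood apart, where chance gives about 1 in 20. In PND0 WT, Elovl6 was lowest in replicate 4, at 70.7 CPM, with the next library at 118. At PND0, Fads2 was highest in KO replicate 3, at 453 CPM, against 387 in the next. Fads2 was lowest in WT replicate 2 of E14.5, at 255 CPM, against 262 in the next, a gap of little size in a tight group. Elovl6 was highest in KO replicate 3 of E14.5, at 104 CPM, against 95.7. At E16.5, Fads1 was highest in KO replicate 3, at 195 CPM against 184, and Acss2 was highest in KO replicate 4, at 24.6 CPM against 21.9.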

How the results depend on the processing

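Among the refits of the 10 genes under the alternatives, 1251 kept the direction and the side of the threshold, 34 lost a call, 34 gained one and 29 changed sign. The counts of genes past the threshold moved as follows. At E12.5 (3 in the main analysis) DESeq2 gave 30, the replicate block 6, 1 fit of 32 libraries 52, the replicate block with transcript length offsets 8, and leaving out 1 library 1 to 5. At E14.5 (94) no filter gave 146, the fit of 32 libraries 4, the replicate block with length offsets 182, and leaving out 1 library 52 (without WT replicate 4) to 155 (without WT replicate 2). At E16.5 (8) no filter gave 233, DESeq2 168, the replicate block 5, the fit of 32 libraries 3, the replicate block with length offsets 5, the sex-gene covariate 4, and leaving out 1 library 3 to 14. At PND0 (250) no filter gave 1091, DESeq2 921, length offsets 63, the fit of 32 libraries 1205, the replicate block with length offsets 85, the ribosomal RNA covariate 2, and leaving out 1 library 35 (without WT replicate 3) to 263. Stage dependence (5) gave 11 with no filter, 187 with the ribosomal RNA covariate, 0 with the replicate block, 8 with length offsets, 797 without E12.5 KO replicate 1 and 0 to 195 without each replicate number. The mean effect (109) gave 72 with no filter, 207 with the ribosomal RNA covariate, 256 without E12.5 KO replicate 1 and 31 to 114 without each replicate number. The length offsets and the missing E12.5 KO replicate 1 of these last 2 results were chosen after seeing the data; counts for the WT steps stayed within 1.5 times. The cause of these shifts was not tested.

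At E12.5, Acaca became 0.019 with the ribosomal RNA covariate and ran from -0.163 to 0.0598 (without KO replicate 1) in the leave-one-out fits; Fasn became -0.025 with the replicate block, -0.034 with the sex-gene covariate and ran from -0.0605 to 0.167 (without KO replicate 1). At PND0, Acss2 became 0.077 with length offsets and 0.076 with block and offsets, Acaca -0.088 and Fads2 -0.029 with the ribosomal RNA covariate, and Acaca ran from -0.0713 to 0.122 (without WT replicates 4 and 3). In the WT step to E14.5, Fads2 ran from -0.0874 to 0.00050. In the step to E16.5, Acaca became -0.014 with no filter, -0.154 with length offsets and ran from -0.0353 to 0.0460, Elovl6 became 0.037 with length offsets, and Fads2 became -0.0010 with no filter and ran from -0.0325 to 0.0553. With length offsets, Acly became -0.070 from E16.5 to PND0 and Acss2 -0.053 from E12.5 to PND0. The mean effect of Acaca ran from -0.0248 to 0.0622 without each replicate number.

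Replicate numbers did not pair the libraries: no comparison had a correlation of deviations above 0.1 in every pair, and the lowest was -0.177. With the replicate block, Aacs and Scd2 at E14.5 and Aacs and Scd1 at PND0 still passed, and Fads1 in the mean over stages did not (adjusted p = 0.0789). At E12.5 the spread between libraries limits what can be seen: the biological coefficient of variation was 19.9%, against 6.25% at E14.5.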
